A study of Mus musculus with 8 samples.

Results

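The genes described are the growth hormone receptor (Ghr), the kinase and transcription factors that carry its signal (Jak2, Stat5a and Stat5b), and the growth hormone-dependent outputs Igf1, Igfals, Socs2 and Cish. They were taken by name, as all probe sets whose only gene symbol in the platform annotation is one of these 8, which gave 13 probe sets for 8 of the 8251 genes that the array measures under a single symbol. Liver RNA of 8 female Ames dwarf mice (df/df), 24 to 26 months old and fed standard pellets ad libitum, was hybridised to Affymetrix mouse U74Av2 arrays, 1 array per liver. All 8 livers belong to this group and are numbered by the replicate in their titles. Every animal carries the df/df genotype, which as background removes growth hormone, prolactin and thyroid-stimulating hormone together. The values therefore describe levels and differences among hormone-deficient livers and hold no measurement of what the deficiency changed. The labels name no animal beyond the sample, so the spread between samples may in part be technical.

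As background, growth hormone binds its receptor on the hepatocyte and activates the associated kinase JAK2, which phosphorylates STAT5A and STAT5B. The STAT5 dimers enter the nucleus and drive Igf1, which encodes the circulating growth factor, and Igfals, which encodes the acid-labile subunit that holds IGF-1 and its binding protein in a long-lived plasma complex. Socs2 and Cish are also induced by STAT5, and their products restrain the receptor's signalling.

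Sequences near the starts of these genes are shown because STAT5 acts through the palindromic motif TTCNNNGAA, whose reverse complement is the same motif. RefSeq promoter windows of 300 bases (build GRCm38.p6, 250 before and 50 after each annotated start) were found for 7 of the 8 genes, in 12 windows. Socs2 had no entry. The motif stood in 3 of the 12 windows, for Igfals and Cish, and in 8.30% of all 32851 windows. By gene this was 2 of 7, against 9.55% of 27025 genes. Igfals lies on the plus strand of chromosome 17, at 24877844 to 24882011, and its windows at 2 annotated starts held a match each. The matches begin 236 bases before the start at 24877844 and 58 bases before the start at 24878231. Cish lies on the plus strand of chromosome 9, at 107296659 to 107302784, and its window held a pair of matches, at 0 and 11 bases after the start. Capitals mark the motif, and each stretch is written 5′ to 3′.
Igfals, chr17:24877594-24877673: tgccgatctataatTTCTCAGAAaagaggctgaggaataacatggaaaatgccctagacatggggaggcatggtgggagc
Igfals, chr17:24878138-24878217: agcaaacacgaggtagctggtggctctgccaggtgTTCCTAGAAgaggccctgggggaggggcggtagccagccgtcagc
Cish, chr9:107296654-107296683: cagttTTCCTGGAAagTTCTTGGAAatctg
These are matches of letters only. The windows of Ghr, Jak2, Stat5a, Stat5b and Igf1 held none, which says nothing of sites elsewhere in those genes.

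Signals are intensities on the deposited linear scale, in arbitrary units, and levels of different probe sets are not set against each other. Array medians were 156 to 181. The 10th percentile of all values, 11.2, was used as a floor for logarithms, and detection calls were not used here, so a signal near or under the array median may be background. The hepatocyte markers had summed signals of 131208 to 183885 over 9 of the 10 listed genes, a 1.40-fold range. Livers 4 and 8 stood apart in macrophage markers and interferon-response genes. The summed signal of 9 macrophage markers was 15689 in liver 4 and 10870.2 in liver 8, and 3402 to 6405 in the others. The sum over 14 interferon-response genes was 62871 and 45249.8 in livers 4 and 8, and 4222 to 16317 in the others. Lymphocyte markers had summed signals of 293 to 850.2 over 9 T and NK cell genes, 1 of them bright enough to test, and of 993 to 1481 over 4 B cell genes, 3 of them bright enough. Between any pair of arrays r across tested probe sets was 0.907 to 0.973.

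Of the 13 probe sets, 6 were above the array median in all 8 livers and 3 were under it in all 8. Those 3 were the only probe set of Socs2 and the dimmer probe sets of Jak2 and Igfals. Variability was tested for the 9 probe sets, of 6 genes, whose mean log2 signal exceeded the median of all non-control probe sets. Each variance over the 8 livers was set against the typical variance at that signal, with Benjamini-Hochberg adjustment over all 6211 tested probe sets and a threshold of 0.05. Igfals and the dimmer of the Igf1 probe sets passed, 2 of 9, against 11.3% of all tested probe sets. With each gene counted once, by its brightest tested probe set, Igfals alone of the 6 genes passed, against 10.3% of 4819 genes. The other 7 had SDs of 0.844 to 1.48 times the typical SD, with a smallest adjusted p of 0.197. The members' median ratio was 1.14, against 0.927 for all tested probe sets. In limma's variance test, which allows for how far variances scatter around the trend, 0 of the 9 members passed, against 0% of all probe sets. Without adjustment 2 of the 9 had a limma p under 0.05, Igfals and the dimmer Igf1 probe set, against 6.84% of all.

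**Figure D1:**
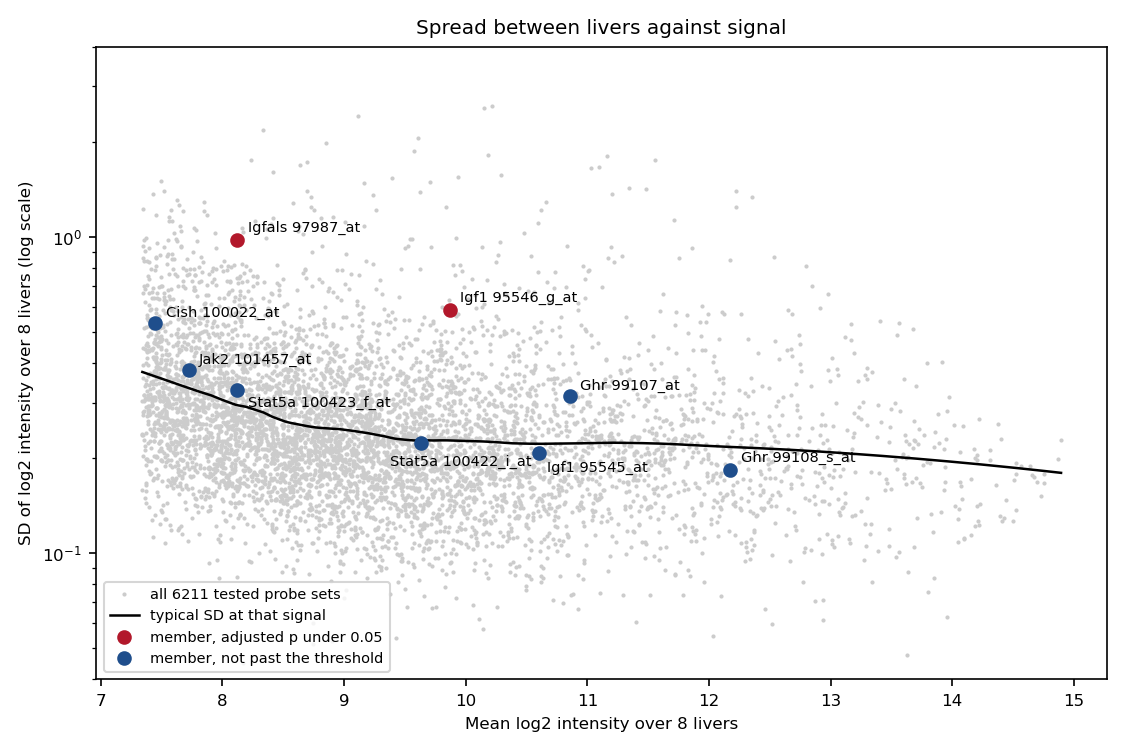
SD of log2 intensity over the 8 livers (log axis) against mean log2 intensity for all tested probe sets (grey) and the 9 tested probe sets of the members, with the typical SD as a line. Igfals and the dimmer Igf1 probe set (red) lie well above the line, at 3.32 and 2.58 times it, and the other members between 0.844 and 1.48 times.

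The receptor gene was measured well above the array median by both of its probe sets, which ordered the livers differently. The suffix of the brighter one marks sequence shared with other transcripts. Ghr, on the minus strand of chromosome 15, encodes the receptor and, by a shorter transcript in mice, the circulating binding protein. On the brighter probe set its signals in livers 1 to 8 were 4294, 5403, 5496, 4298, 3989.5, 4374, 5203 and 4205 (4658 ± 604, SD, n = 8). Livers 2, 3 and 7 formed an upper cluster of 5203 to 5496, and the other 5 lay at 3989.5 to 4374. On the dimmer probe set the signals were 1858, 1669.9, 2291, 1258, 1959, 2481, 2056 and 1572 (1893 ± 395). There livers 4 and 8 held the lowest signals and liver 6 the highest, a 1.97-fold range. The macrophage and interferon sums were highest in the same livers, and their part in this was not tested. Neither spread passed the test, at 0.844 and 1.41 times the typical SD (adjusted p = 0.282 for the dimmer probe set). Because the RNA came from whole liver, fewer hepatocytes and less RNA per hepatocyte cannot be told apart in such values.

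Jak2, which encodes the receptor's kinase, was near the array median. Its brighter probe set read 237.5, 206.5, 218.5, 306, 127, 191, 188 and 263 in livers 1 to 8 (217 ± 53.8, SD, n = 8). Livers 4 and 8 were highest and liver 5 lowest, a 2.42-fold range that did not pass (1.14 times the typical SD, adjusted p = 0.790). In both of those livers the macrophage and interferon sums were also highest, and their part in the Jak2 signal was not tested. A further probe set read 2.9 to 8.7, under the floor on all arrays, and is taken as uninformative.

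**Figure D2:**
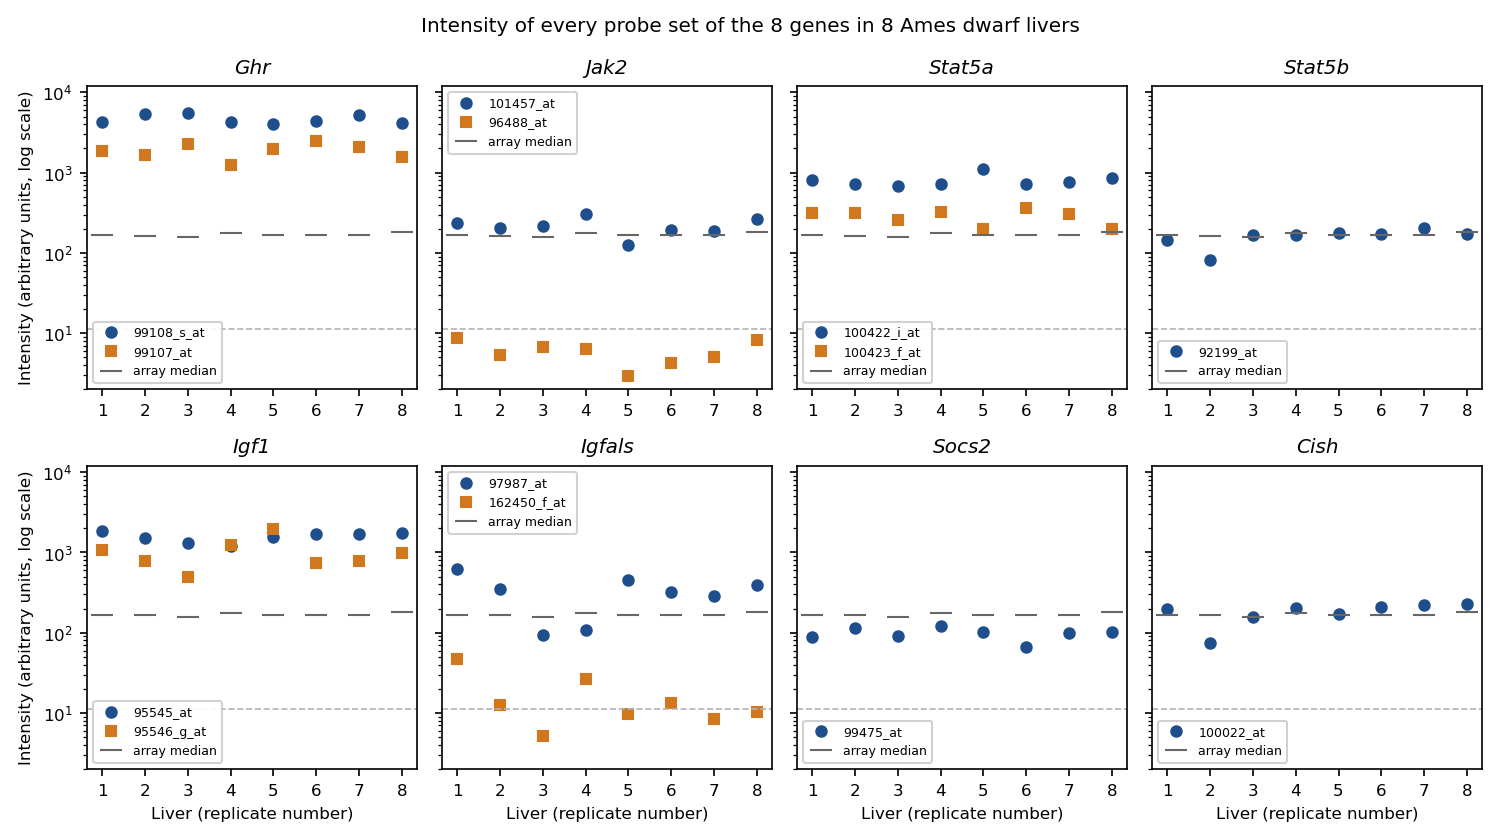
Intensity (log axis, arbitrary units) of each probe set in livers 1 to 8, a panel per gene, with the array median as short bars and the floor of 11.2 as a dashed line. Both probe sets of Ghr, Igf1 and Stat5a lie above the array median in every liver, the brighter Jak2 probe set, Stat5b and Cish lie around it, Socs2 lies under it, and the dimmer Jak2 probe set lies under the floor.

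The STAT5 genes lie side by side on chromosome 11, 346 bases apart, with Stat5b at 100780731 to 100859004 and Stat5a at 100859351 to 100885169. Stat5a was read by a pair of probe sets whose suffixes mark relaxed design rules or sequence shared with other transcripts. On the brighter one the signals were 813, 723, 688, 714, 1109, 730.4, 775 and 865 (802 ± 137, SD, n = 8), highest in liver 5. On the dimmer one they were 318, 316, 258, 325, 199.6, 359.8, 302 and 198 (285 ± 59.9), and liver 5 was among the lowest, with liver 8. The probe sets ran in opposite directions (r = -0.722, exact permutation p = 0.0364, adjusted over 2 genes p = 0.0728, rho = -0.452 with exact permutation p = 0.267). Without the 2 most distant livers, by the brighter probe set, r was 0.321, so the relation rested on those livers. Neither spread passed (0.982 and 1.12 times the typical SD, adjusted p = 0.832 for the dimmer probe set), and without liver 5 that of the brighter one was 0.534 times.

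Stat5b, the main STAT5 of hepatocytes, was too dim to be tested, with a mean just under the limit. Its signals were 146, 80.6, 169, 166, 175, 170.2, 205 and 171 in livers 1 to 8 (160.3 ± 36.1, SD, n = 8). Liver 2 stood lowest and the other 7 lay within 146 to 205. Cish, which encodes a feedback inhibitor that docks on the receptor, was lowest in the same liver. It read 196, 73.5, 157, 203, 173, 211, 224.5 and 229 (183 ± 50.6), above the array median in 7 livers and under it in liver 2. Its spread was 1.48 times the typical SD and did not pass (adjusted p = 0.197). Without liver 2 it was 0.594 times.

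Socs2 encodes the feedback inhibitor whose loss, as background, causes overgrowth in mice. Its probe set read 87.9, 114, 91.4, 120.5, 102, 66.2, 99.0 and 103 (98.0 ± 16.7, SD, n = 8), under the array median in every liver. Liver 4 was highest and liver 6 lowest, a 1.82-fold range. At this signal a low level and background could not be separated, so the narrow range says little of the transcript.

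Igf1, the growth factor that carries much of growth hormone's effect on size, had a steady signal on its brighter probe set and a wide range on the other. The brighter probe set read 1832.5, 1529, 1314, 1205, 1579, 1685.5, 1688 and 1724 in livers 1 to 8 (1569.6 ± 214, SD, n = 8). Livers 4 and 3 were lowest and the other 6 lay within 1529 to 1832.5. Its SD was 0.934 times the typical SD and did not pass. The dimmer probe set, listed under the same source sequence, read 1067, 775, 499, 1252, 1949, 733, 792 and 989 (1007 ± 445). Liver 5 was highest and liver 3 lowest, a 3.91-fold range that passed (2.58 times the typical SD, adjusted p = 1.92e-06). The probe sets did not follow each other (r = 0.0972, exact permutation p = 0.814, rho = 0.119 with exact permutation p = 0.793, r = -0.125 without the 2 most distant livers). Among 679 genes with at least 2 tested probe sets, the median r between the brightest pair was 0.252, and 68.5% had an r above 0. Liver 5 was thus highest on the dimmer Igf1 probe set and the brighter Stat5a one and lowest on Jak2. It also had the highest ratio of 3′ to 5′ Gapdh control signal, 0.969 against 0.806 to 0.886 in the others. Its ratio of 3′ to 5′ beta-actin control signal, 1.66, lay within the 1.24 to 1.74 of the others. The part of RNA quality in the pattern of liver 5 was not tested. With probe sets of shared or relaxed design left out, the dimmer Igf1 one among them, Igfals was the only member to pass.

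Igfals varied most of the tested members. The acid-labile subunit is made almost solely by hepatocytes. The brighter probe set read 625, 347, 92.7, 107, 458, 324, 287 and 394 in livers 1 to 8 (329 ± 176, SD, n = 8). Livers 3 and 4 fell under their array medians, and the other 6 lay above them. The range was 6.75-fold and the SD 3.32 times the typical SD (adjusted p = 3.01e-12). With each liver left out in turn it stayed past the threshold, at 2.85 to 3.56 times the typical SD. The ranges are uncertain at the low end because the signals of livers 3 and 4 are under the array median. A dimmer probe set read 5.2 to 47.5 and was above the floor in 4 of 8 livers. Its highest signal was also in liver 1, but liver 4 was second highest on it, at 26.7, and liver 3 was among the 4 livers under the floor.

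Livers 3 and 4 thus held the lowest signals of both Igfals and the brighter Igf1 probe set. Igfals fell into clusters of 2 and 6 livers, so no r over all 8 is given. Within the 6 other livers r was 0.449 (exact permutation p = 0.371, adjusted p = 0.556, rho = 0.314 with exact permutation p = 0.564). The same livers had the highest signals of Igfbp1 on its brighter probe set, at 9456 and 10169.6 against at most 7818 in the others. They were also highest for Cebpb, at 2503 and 3016 against at most 2033. In their marker scores they were at opposite ends. The acute-phase score, a mean of centred log2 signals over 15 genes, was -0.61 in liver 3 and 1.09 in liver 4, the lowest and the highest of the 8. The hepatocyte score was 0.24 and -0.16, also the highest and the lowest. They also had the lowest ratios of 3′ to 5′ beta-actin control signal, 1.41 and 1.24 against 1.51 to 1.74 in the others, whose part in the result was not tested. The Gapdh ratio of both, 0.886 and 0.874, lay within the range of the others.

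**Figure D3:**
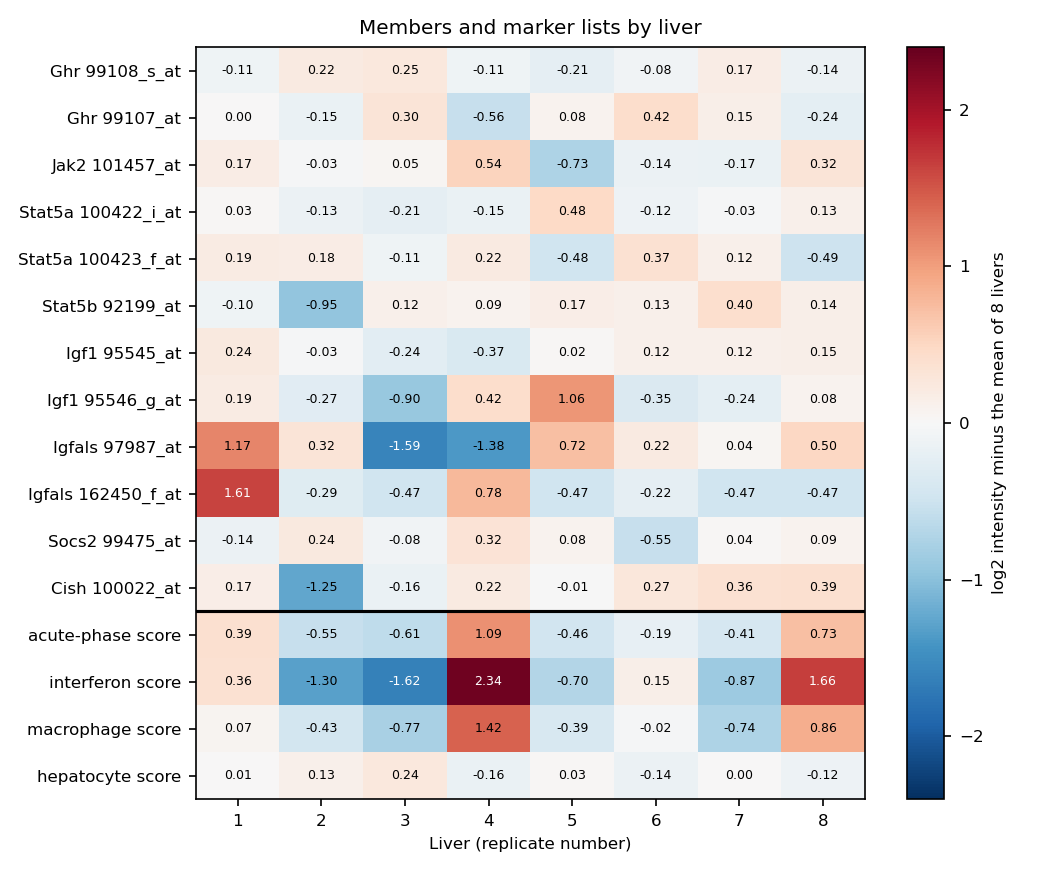
Log2 intensity minus its mean over 8 livers, for 12 probe sets of the members and for mean scores of 4 marker lists, in livers 1 to 8 (values printed in the cells). The brighter Igfals probe set is at -1.59 and -1.38 in livers 3 and 4, whose acute-phase scores are -0.61 and 1.09.

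Of 14 pairs of members or of a member and the acute-phase score, 5 could be correlated over all 8 livers, and in the other 9 a gap split the values into clusters. Each r was also taken without the 2 livers most distant from the median of the first measure. None of the 5 passed, with r between -0.466 and 0.275 and a smallest exact permutation p of 0.249 (adjusted p = 0.832). That pair was Igf1 and Socs2 (rho = -0.476 with exact permutation p = 0.243, r = -0.448 without the 2 most distant livers, and -0.564 and -0.182 within arrays 1 to 4 and 5 to 8). For the acute-phase score and Igf1, r was -0.127 (exact permutation p = 0.777), and 0.795 without the 2 livers of most distant score. The score and Igfals had an r of 0.474 within the 6 livers of the upper Igfals cluster (exact permutation p = 0.340, adjusted p = 0.556, rho = 0.257 with exact permutation p = 0.658). With the other probe set of each gene, 11 pairs could be run. The largest r there was that of the dimmer Ghr probe set and Socs2, which ran against each other (r = -0.818, exact permutation p = 0.0140, rho = -0.833 with exact permutation p = 0.0154). It did not pass over the 11 pairs (adjusted p = 0.154), was -0.836 within arrays 1 to 4 and -0.819 within arrays 5 to 8, and was -0.580 without the 2 most distant livers. Socs2 was under the array median in every liver, so its signals may be background. With the brighter Ghr probe set, whose values a gap split into clusters, r with Socs2 was -0.0566 within arrays 1 to 4 and -0.00761 within arrays 5 to 8. The dimmer Ghr probe set also ran against the acute-phase score (r = -0.743, exact permutation p = 0.0336, adjusted p = 0.185, rho = -0.571 with exact permutation p = 0.151). That r was -0.0866 without the 2 livers of most distant score, so it rested on those livers.

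Other genes of the pathway were read from 4 lists holding 60 genes, of which 47 were on the array and 33 were bright enough to test. Of these 33, 8 varied beyond the typical variance, with a median SD of 1.22 times the typical SD, against 10.3% of all genes and a median of 0.927 for all probe sets. In limma's test 0 of the 33 passed after adjustment, against 0% of all tested probe sets. Without adjustment 5 of the 33 had a limma p under 0.05, against 6.84% of all.

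In the signalling list, 2 of 15 tested genes passed. Socs1, an inhibitor of JAK kinases that interferon induces, read 24.9 in liver 3, 827 in liver 4 and 411 in liver 8 (269 ± 253, SD, n = 8, adjusted p = 1.60e-21), and without liver 4 it was too dim to be tested. Ptpn1, a phosphatase that acts on JAK2, read 887 in liver 4 and 287 to 526.5 in the others (adjusted p = 0.00354), and without liver 4 it no longer passed (adjusted p = 0.697). Both were thus highest in the liver with the highest macrophage and interferon sums, whose part in them was not tested. Of the other JAK kinases, Jak1 ranged 1.42-fold, Jak3 1.39-fold and Tyk2 2.62-fold, the last highest in liver 8 at 466, and none of the 3 passed.

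In the IGF system list, 3 of 7 tested genes passed, all of them binding proteins. Igfbp1, which insulin represses and fasting raises, read 709 in liver 5 and 10169.6 in liver 4 (5973 ± 3167, SD, n = 8, adjusted p = 9.13e-44). Its ratio to the typical SD was 5.74, and 2.99 without liver 5, still past the threshold (adjusted p = 3.18e-08). The suffix of this Igfbp1 probe set marks sequence shared with other transcripts. The gene's other probe set, too dim to test, read 11 to 27.6. It was highest in liver 2 and read 11.2 in liver 4, so it did not show the same pattern. Igfbp3, the partner of IGF-1 and the acid-labile subunit in plasma, read 343, 195, 271, 48.9, 242, 382, 227 and 151 in livers 1 to 8 (adjusted p = 1.68e-07). Liver 4 was lowest for Igfbp3, as it was for the brighter Igf1 probe set, and it was second lowest for the brighter Igfals one. This rests on 1 probe set a gene. In liver 4 the dimmer probe set of Igfbp3, too dim to test, was in its upper range at 196 (92.1 to 208), and those of Igf1 and Igfals were second highest. Without liver 4 Igfbp3 no longer passed (adjusted p = 0.209). Igfbp2 read 6761 to 14062 (adjusted p = 0.00962), and without liver 2 or liver 5 it no longer passed (adjusted p = 0.0699 and 0.0592). Igf2, a fetal growth factor, ranged 3.62-fold and missed the threshold (adjusted p = 0.0518). Its suffix too marks a probe set of shared design. The gene's other probe set, too dim to test, read 5.7 to 13, around the floor of 11.2.

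Among liver transcription factors, 2 of 9 tested genes passed. Hnf4a, a hepatocyte identity factor, read 1503, 746, 823, 751, 1529, 1284, 1080.1 and 1292 (adjusted p = 0.00683), lowest in livers 2, 4 and 3. With arrays 1 to 4 and 5 to 8 given separate means, a division seen in the spike-in controls (10.70 to 10.88 and 10.18 to 10.46 mean log2 signal), it no longer passed (adjusted p = 0.115). Cebpb, a factor of the acute phase, read 1161 in liver 1 and 3016 in liver 4 (adjusted p = 0.000389). Of the growth hormone-regulated genes 2 were bright enough to test. Cyp7b1, a steroid hydroxylase with higher levels in males, passed (192.5 in liver 5 to 719.5 in liver 4, adjusted p = 0.000107), but not without liver 4 (adjusted p = 0.0731). Its second probe set was also highest in livers 8 and 4. Cyp8b1, a bile acid hydroxylase, ranged 1.56-fold and did not pass (adjusted p = 0.688).

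**Figure D4:**
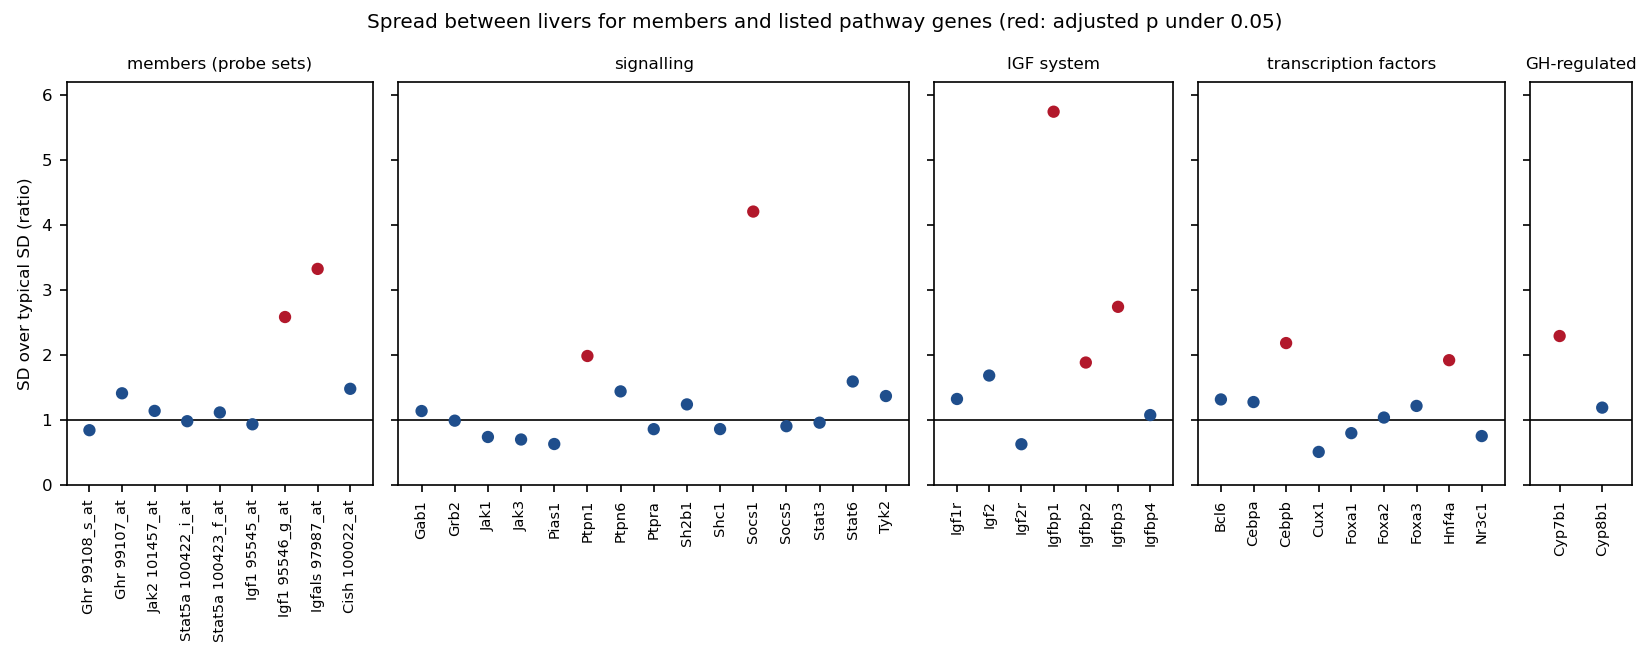
SD over the 8 livers divided by the typical SD at that signal for the 9 tested probe sets of the members and the 33 tested genes of 4 pathway lists, with red points past an adjusted p of 0.05. Of the members 2 are red, and of the listed genes 8, with the highest ratios at 5.74 for Igfbp1, which is 2.99 without liver 5, and 4.20 for Socs1.

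The genes with the highest and lowest Pearson's r to Igf1, Igfals and Ghr over the 8 livers are named as a description. The search covered 4818 other genes, and all share the same 8 arrays. The brighter probe sets of Igfals and Ghr fell into clusters of livers, so no r over all 8 was given for their pairs above. For these probe sets, the r values and counts below may mostly reflect the split between clusters. For Igfals that split sets livers 3 and 4 apart, and for Ghr the upper cluster. Whether the named genes followed Igfals or Ghr within a cluster was not tested. The brighter Igf1 probe set was most like Canx, a chaperone of the endoplasmic reticulum (r = 0.964), Creb3l1 (0.955), Il15ra (0.954), Pctp (0.946) and Carhsp1 (0.944). It was most opposed to Cct4, a chaperonin subunit (-0.973), the proteasome genes Psma3 (-0.959) and Psmc1 (-0.920), Nifk (-0.906) and Tmx2 (-0.905). Igfals was most like Atp2c1, a calcium pump of the Golgi (0.979), Dnajb1 (0.960), U90926 (0.959), Gas6 (0.944) and Bin1 (0.941). It was most opposed to Cops4 (-0.940), Map2k1 (-0.923), Hsd17b12 (-0.909), Bach1 (-0.904) and Cuedc2 (-0.896). The brighter Ghr probe set was most like Cyb5a, cytochrome b5 (0.976), Siva1 (0.967), Hibadh (0.956), Ammecr1l (0.954) and Acadm, a mitochondrial fatty acid dehydrogenase (0.937). It was most opposed to Cdk2ap1 (-0.966), Cd99 (-0.949), Stx18 (-0.947), Ebi3 (-0.944) and Ctps (-0.928). With arrays scaled to a common median, the r of 5 opposed genes moved most, to -0.654 for Cct4, -0.709 for Psma3, -0.691 for Psmc1, -0.796 for Cops4 and -0.788 for Stx18. Cct4, Psma3 and Psmc1 were then less opposed than Nifk (-0.827) and Tmx2 (-0.822). An r above 0.9 was reached by 21 genes for Igf1, 26 for Igfals and 21 for Ghr, and an r below -0.9 by 5, 4 and 18. How many genes reach such an r for other genes, or by chance with 8 arrays, was not counted, so these counts have no reference. The brighter Igf1 and Ghr probe sets had SDs of only 0.934 and 0.844 times the typical SD. The part of technical noise in their r values was not tested. No member was among the 5 genes named for another. Igf1 and Igfals, by their brighter probe sets, were however each among the genes counted above 0.9 for the other. Both were lowest in livers 3 and 4. Their r was 0.955 within arrays 1 to 4 and -0.597 within arrays 5 to 8. Within the 6 livers other than 3 and 4 it was 0.449.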

How the data were processed

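Gene expression was measured in 8 livers of 1 group. Per the labels, total RNA was hybridised to Affymetrix U74Av2 arrays, scanned with an HP GeneArray instrument. Values were used as linear intensities, as the authors deposited them, and the software that made the values is not given in the sources used here. Means after trimming 2% at each end differed by 0.160% between arrays, so no further scaling was applied. The 66 control probe sets were left out of the 12488. All 13 probe sets of the members have the same symbol under their Entrez identifier in RefSeq GRCm38.p6.

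Values under the 10th percentile (11.2) were set to it before log2. The typical variance was a loess curve of log variance on mean log2 signal (span 0.3), tested by a one-sided chi-square. This and limma 3.58.1 (R 4.3.3) were run on 6211 probe sets. Both were also run on simulated normal noise at the typical SD, with the SD raised for some probe sets. There the assumption of the chi-square test holds by design. That run therefore cannot show the test's error rate where true variances differ between genes. Pairs used exact two-sided permutation in Python 3.11.15, with no pooled r where a gap exceeded 50% of the range. Genes were named by fixed rules: all members, listed pathway genes past the test, and the 5 genes most and least alike for Igf1, Igfals and Ghr. The members, lists and tests were chosen with earlier results of these data known, and the comparison of the probe sets of a gene was added after seeing the values. The number of arrays limits the precision. Alternatives were other scalings, floors, filters, probe sets and arrays.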

Additional observations from a re-analysis of the deposited data

Results flagged for a closer look

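Of 21 probe sets examined, those of the members and of the listed genes that passed, 3 had a liver far from the rest by Dixon's criterion. That criterion flags about 1 in 20 unselected groups of normally distributed values by chance. Here linear signals were used, and the listed genes were taken for their wide spread in the same livers. The rate by chance for these 21 is therefore not known. The brighter Stat5a probe set was highest in liver 5 at 1109, with the next liver at 865. Cish was lowest in liver 2 at 73.5, with the next at 157. Ptpn1 was highest in liver 4 at 887, with the next at 526.5.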

How the results depend on the processing

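The count of 2 members past the typical-variance test held in 17 of 19 alternatives. It was 1 without probe sets of shared or relaxed design and 0 in limma's test. The count of 8 other pathway genes was 4 to 9 with a liver left out, lowest without liver 4, and 4 without livers 4 and 8. In limma's test it was 0. No such count was taken without probe sets of shared or relaxed design. Of the genes called, Cebpb, Hnf4a, Igfbp2, Igfbp3 and Ptpn1 still passed there. The probe sets of Igfbp1 and Cyp7b1 were left out by their suffix, and that of Socs1 was not among those tested. Over all 6211 probe sets the typical-variance test called 702 and limma 0. Limma called 24 of 4807 with the shared-design probe sets left out, and 10 with arrays scaled to a common median, which moved arrays by -0.10 to 0.11 on the log2 scale. None of the 5 pairs passed in any of 17 alternatives, and r changed sign in 5 of 17 for the acute-phase score and Igf1, 4 for the score and Socs2, 3 for Igf1 and Stat5b and 1 for Igf1 and Socs2. The cause of these changes was not tested. No paired analysis was possible because there is a single group. Signals near the array median limit what can be said of Socs2, Stat5b, Cish and Jak2.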

Other observations

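Several listed pathway genes were too dim to test. Egfr, whose hepatic level growth hormone is known to raise in mice, had 3 probe sets. The brightest read 371 in liver 8, 334.5 in liver 4 and 51.7 in liver 5. The next read 167, 156 and 152 in livers 1, 4 and 8 and 17.4 in liver 5. The dimmest was also high in liver 4, at 97.8, but it was lowest in liver 6, at 19.4, and read 66.5 in liver 5. Socs3, an inhibitor induced by interleukin-6 signalling, had its highest signals in livers 4 and 8 on both probe sets, at 357 and 231 on the brighter one. Insr, the insulin receptor gene, read 19.3 to 64.0. The dimmer probe set of Shc1, an adaptor of receptor signalling, varied beyond the typical variance (39.6 in liver 2 to 308 in liver 4, adjusted p = 5.57e-06), while the brighter one did not. Liver 2 was thus lowest for this Shc1 probe set, Cish and Stat5b, 3 probe sets with signals near the array median. It was also lowest for some listed genes with higher signals, such as Jak3 and Hnf4a. The brighter Shc1 probe set was lowest in liver 8 instead.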
